A study of Mus musculus with 5 samples.

Results

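Most of the 42 genes described here build the centriole, the material around it and the mitotic spindle with its poles. Cit and Mcph1 were grouped under cytokinesis and chromosome condensation. The 42 include 11 genes whose loss causes primary microcephaly in humans. The name microcephaly genes stands for this list of 11 only and does not say that the other 31 members have no link to microcephaly. The members were chosen by gene symbol, and all 42 were found among the 21801 genes of the deposited table. They were measured by RNA sequencing in mouse neuroepithelial cells (NECs), which the labels call neural progenitor cells and the series text describes as purified, from a study of the developing neocortex. All 5 libraries, replicates 1 to 5, belong to 1 group with no treatment or genotype given, so the 11 microcephaly genes are set against the other 31 members within each library. The age of the embryos, the way the cells were purified and the number of animals are not stated in the labels read here. P-values therefore measure the spread between these samples only, which may be technical.

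A centriole is a small cylinder of microtubules that is copied once per cell cycle. The kinase Plk4 starts the copy, Stil and Sass6 form a cartwheel beside the old centriole, and further proteins lengthen and cap the new wall. A shell of pericentriolar material around the centrioles carries rings of gamma-tubulin that seed microtubules, and the augmin complex adds new microtubules along existing ones inside the spindle. Neuroepithelial cells divide at the apical surface with a centrosome at each spindle pole, and mutations in several centrosome and spindle-pole genes reduce brain size in humans and mice.

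Levels are given in FPKM (fragments mapped to a gene, scaled to 1 kilobase of its transcript and to 1000000 mapped fragments), as mean ± SD over the 5 libraries unless each library is listed, in which case the order is replicates 1 to 5. A gene was called above or below a level by limma's moderated test on log2(FPKM + 1) over all 19706 genes above 0 in at least 1 library, two-sided, at a Benjamini-Hochberg adjusted p under 0.05. The FPKM of a library summed to 747034 to 847625, and the smallest steps in FPKM correspond to library totals of 20.6 to 28.4 (in units of 1000000 reads). At that depth about 158 to 20882 reads stood behind the value of a member in a library, from Cntrob in replicate 3 to Ckap5 in replicate 4. Of 12 neural progenitor markers 11 lay above 1 FPKM and none below, against 52.3% of all genes tested above and 41.4% below. Markers of other cells were also present. Of 12 mesenchyme, meninges and pericyte genes 8 (66.7%) lay above 1 FPKM and 2 below. Their summed level was 41.2, 67.9, 143, 117 and 119 FPKM in the 5 libraries. The highest gene alone gave 12.1, 28.2, 66.1, 55.5 and 50.9 FPKM of these sums. None of these 12 was at 0 in every library. Of 8 surface ectoderm genes 7 lay above 1 FPKM and 1 below, with sums of 100 to 152 FPKM, the highest gene averaging 62.3 FPKM. Of 12 neuron genes 7 lay above 1 FPKM (58.3%, near the 52.3% of all genes tested) and 4 below. Their sums were 96.5 to 136 FPKM, the highest gene averaging 61.6 FPKM. Sums were 14.6 to 41.6 FPKM for 6 neural crest genes, 5.29 to 9.10 for 6 basal progenitor genes, 5.08 to 8.15 for 6 endothelial genes and 1.88 to 6.19 for 7 blood and macrophage genes. In bulk samples fewer cells of a type and less RNA per cell cannot be told apart.

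The centriole, pericentriolar and microcephaly genes were broadly expressed in NECs. Of the 42 members 41 lay above 1 FPKM and none below, against 52.3% of all genes tested above and 41.4% below. The exception was Pcnt, which was called neither way, as were 6.21% of all genes. Against 10 FPKM, 30 members were called higher and 10 lower, and Poc5 and Cep192 made up the 2 with no call. Over all genes tested, 27.7% were called above 10 FPKM, 68.4% below and 3.87% neither. Mean levels spanned from 1.13 ± 0.24 FPKM for Pcnt, a scaffold of the pericentriolar material, to 239 ± 17.2 FPKM for Cetn3, a small calcium-binding centrin. The median member, at 20.5 FPKM, stood against a median of 1.79 FPKM over all tested genes.

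**Figure D1:**
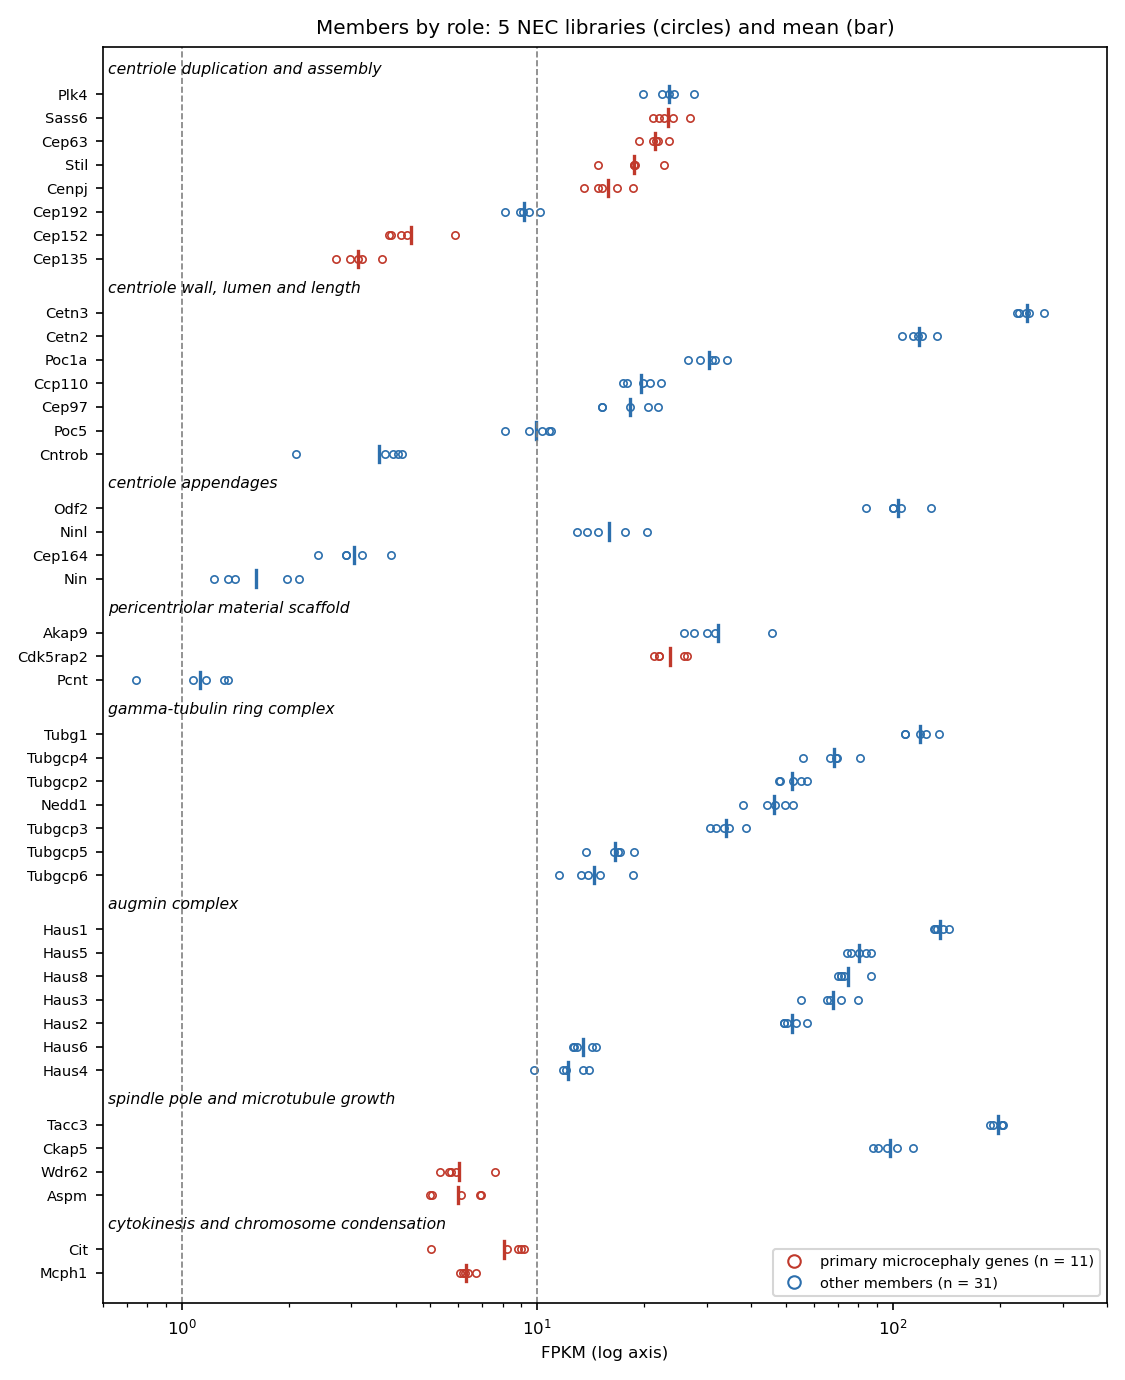
FPKM of each member (log axis) in the 5 NEC libraries (circles) with the mean (bar), grouped by role, with primary microcephaly genes in red and other members in blue and dashed lines at 1 and 10 FPKM. All gamma-tubulin ring and augmin members have means above 10 FPKM, while 6 of the 11 microcephaly genes have means under it.

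The primary microcephaly genes had the lower median, although the lowest 3 members, Pcnt, Nin and Cep164, are not among them. The microcephaly median was 8.25 ± 1.27 FPKM over the libraries, against 31.1 ± 2.36 FPKM for the other members. All 11 lay above 1 FPKM, but 5 lay above 10 FPKM and 6 below it, whereas the other 31 members had 25 genes above 10 FPKM, 4 under it and 2 without a call. The microcephaly median was 6.06, 8.80, 9.14, 9.00 and 8.22 FPKM in the 5 libraries, and the median of the other members 27.5, 31.7, 30.9, 34.1 and 31.6 FPKM. The medians of the sets did not overlap in any library. The microcephaly median minus the other median was -1.81 ± 0.13 on the log2(FPKM + 1) scale, lower in 5 of 5 libraries, and no test was made of this difference because it is a score over chosen genes.

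Transcript length and the makeup of the sets differed along with the level. The longest coding transcript had a median of 5285 bases for the microcephaly genes and 3861 bases for the other members, and 10 of 11 microcephaly genes reached 4000 bases, against 13 of 31. Across the 42 members level and transcript length had a Spearman rho of -0.63 (Pearson's r -0.64 on log2 values), against -0.24 over 10805 expressed genes, those averaging 1 FPKM or more. Within the 11 microcephaly genes rho was -0.24, and within the other 31 members it was -0.66. Genes are not independent replicates, so these values are a description only. Among members with transcripts of at least 4000 bases the difference between the sets was -0.86 ± 0.22 (10 against 13 genes), and without the gamma-tubulin ring and augmin subunits it was -1.19 ± 0.27 (11 against 17 genes). In each case the microcephaly genes remained the lower set, by a smaller difference. The part that length plays in the difference was not tested.

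**Figure D2:**
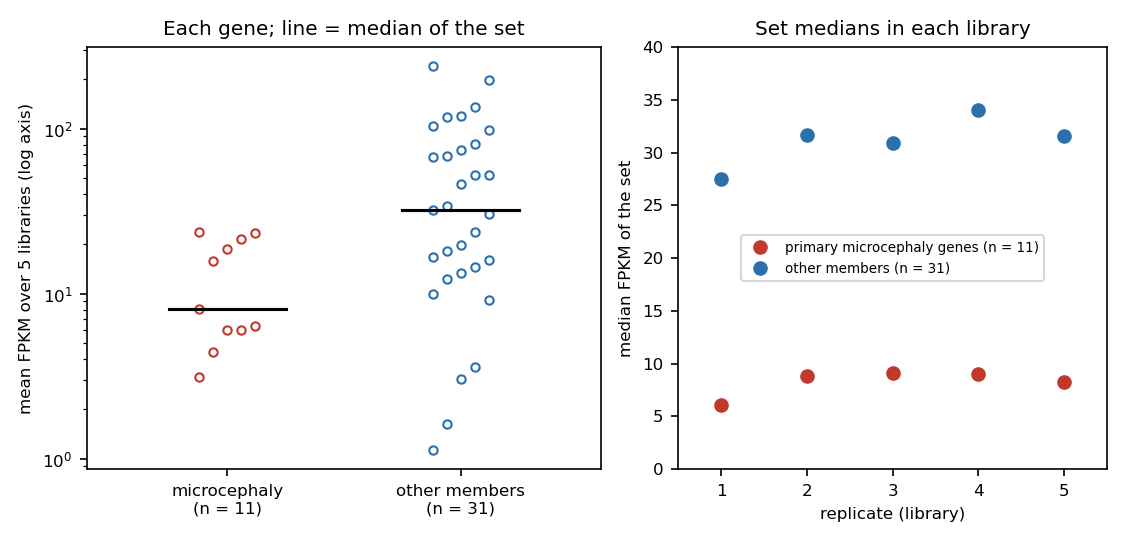
Left, mean FPKM over 5 libraries (log axis) of each gene in the microcephaly set and among the other members, with the set median as a line. Right, the median FPKM of each set in each library: the microcephaly medians lie between 6.06 and 9.14 FPKM and those of the other members between 27.5 and 34.1 FPKM.

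**Figure D3:**
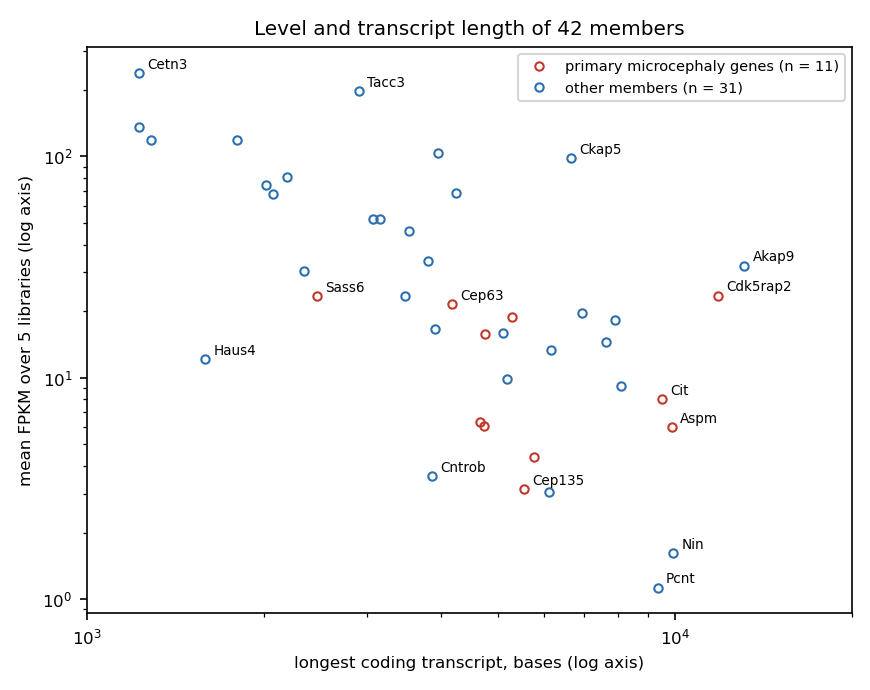
Mean FPKM (log axis) of the 42 members against the length of their longest coding transcript in bases (log axis), microcephaly genes in red and other members in blue. Short transcripts such as Cetn3 stand high and most long ones lower, with Akap9 and Cdk5rap2 above other transcripts of similar length and Pcnt and Nin at the bottom.

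The genes of centriole duplication and assembly, 6 of 8 of which are on the microcephaly list, had means from 23.5 FPKM (Plk4) down to 3.13 FPKM (Cep135). Plk4, the kinase that starts duplication, was at 22.4, 19.8, 27.6, 24.2 and 23.4 FPKM. Sass6, the structural protein of the cartwheel, was at 21.1, 24.1, 22.7, 26.9 and 22.0 FPKM. Stil, which Plk4 phosphorylates so that it binds Sass6, was at 14.8, 18.7, 18.6, 22.7 and 18.9 FPKM. Plk4 and Sass6 overlapped in range and their order changed between libraries, whereas Stil was below both in 5 of 5. Of the annotated exon bases of Sass6, 24.5% overlap the antisense transcript Gm42893, so its level is uncertain. Plk4 minus Stil was 0.32 ± 0.23 and Stil minus Sass6 -0.31 ± 0.11 on the log2 scale (exact permutation of signs across the 5 libraries, two-sided, p = 0.062 for each, adjusted 0.0714). No pair could reach 0.05 with 5 libraries, since 0.062 is the smallest p that the 32 sign patterns allow.

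Plk4 is brought to the centriole by Cep152 and Cep192, with Cep63 as a partner of Cep152. Cep152, a microcephaly gene, was at 4.30, 5.87, 3.87, 3.83 and 4.15 FPKM. Cep192 was at 8.10, 9.09, 10.2, 8.94 and 9.49 FPKM, and Cep63, also a microcephaly gene, at 21.1, 21.8, 23.4, 21.5 and 19.4 FPKM. The ranges of these 3 genes did not overlap, with Cep152 lowest and Cep63 highest in every library. Of the annotated exon bases of Cep63, 2.49% also lie in exons of Anapc13 on the other strand. Anapc13 stood at 158 ± 10.1 FPKM, so the level of Cep63 is uncertain. Cep152 minus Cep192 was -0.92 ± 0.25 and Cep152 minus Cep63 -2.06 ± 0.23 on the log2 scale, lower in 5 of 5 libraries (sign-flip test, exact p = 0.062, adjusted 0.0714). Cep152 lay below 10 FPKM (difference -1.04, SE 0.10, limma adjusted p = 1.62e-05), while Cep192 was called neither way (limma adjusted p = 0.109). Rescaled to a sum of 1000000 FPKM, Cep192 was called above 10 FPKM.

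Cenpj, which binds tubulin and sets the length of the new centriole, stood well above Cep135, which ties the cartwheel to the microtubule wall. Cenpj was at 13.5, 18.6, 15.2, 16.7 and 14.9 FPKM and Cep135 at 3.13, 2.71, 3.65, 3.20 and 2.97 FPKM. The lowest Cenpj value was above the highest Cep135 value, and Cenpj minus Cep135 was 2.02 ± 0.24 on the log2 scale in 5 of 5 libraries (sign-flip test, exact p = 0.062, adjusted 0.0714). Cep135 was the lowest of the 11 microcephaly genes. Deup1, a relative of Cep63 that serves centriole amplification in multiciliated cells, was at 1.06 ± 0.52 FPKM. Of the 8 deuterosome and multiciliated cell genes 7 could be tested, and none lay above 1 FPKM, 5 lay below and 2, Deup1 and Myb, were called neither way. Foxj1, a factor of multiciliated cells, was at 0.08 ± 0.06 FPKM, and Ccno was listed at 0 in all 5 libraries.

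Among the centriole wall and length genes, Cetn3 was 56.9 to 115 times Cntrob within a library. Cetn3 was at 226, 223, 241, 266 and 237 FPKM and its paralog Cetn2 at 106, 121, 114, 133 and 118 FPKM. Both centrins kept a nearly fixed ratio, Cetn2 minus Cetn3 being -1.01 ± 0.08 on the log2 scale in all 5 libraries (sign-flip test, exact p = 0.062, adjusted 0.0714). Poc1a, a protein of the centriole wall, was at 30.4 ± 2.88 FPKM, and Poc5, a centrin-binding protein of the inner lumen, at 9.91 ± 1.16 FPKM. Poc5 was called neither way against 10 FPKM as deposited (limma adjusted p = 0.806) and above it when each library was rescaled to a sum of 1000000 FPKM. It shares 25.7% of its exon bases with Ankdd1b, which was at 0.867 ± 0.13 FPKM.

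Ccp110 and Cep97, which together cap the far end of the centriole and hold back cilium growth, stood at like levels. Ccp110 was at 20.7, 22.3, 17.4, 17.9 and 19.8 FPKM and Cep97 at 15.2, 20.5, 15.2, 21.8 and 18.3 FPKM. Their ranges overlapped and Ccp110 was higher in 4 of 5 libraries, with a difference of 0.11 ± 0.25 on the log2 scale that ran from -0.27 to 0.42 (sign-flip test, exact p = 0.375, adjusted 0.4). Cntrob, a protein of the daughter centriole, was the lowest of this role at 3.72, 3.92, 2.10, 4.15 and 4.07 FPKM. Replicate 3 stood below the other 4 libraries.

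Among the appendage genes, Odf2 was 39.5 to 104 times Nin within a library. Odf2, needed for the appendages of the mother centriole, was at 99.99, 128, 84.1, 100.1 and 105 FPKM. Cep164, the distal appendage protein that docks the centriole at the membrane, was at 2.89, 2.89, 3.87, 2.41 and 3.22 FPKM. Odf2 minus Cep164 was 4.68 ± 0.35 on the log2 scale, and the mean of Odf2 was 33.9 times that of Cep164. Nin, which anchors microtubules at the subdistal appendages, was at 1.35, 1.23, 2.13, 1.41 and 1.98 FPKM, and its relative Ninl at 20.4, 17.6, 13.8, 12.9 and 14.8 FPKM. The ninein-like gene exceeded ninein in 5 of 5 libraries, Nin minus Ninl being -2.69 ± 0.42 (sign-flip test, exact p = 0.062, adjusted 0.0714). Of the annotated exon bases of Ninl, 2.45% also lie in exons of Nanp on the same strand. Nanp stood at 37.8 ± 5.75 FPKM, so the level of Ninl is uncertain. Nin was above 1 FPKM by 0.38 on the log2 scale (SE 0.10, limma adjusted p = 0.00753).

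Among the scaffold genes of the pericentriolar material, Pcnt stood far below its partners. Pcnt (ENSMUSG00000001151, chromosome 10, 76351263 to 76442786 on mm10) was at 1.07, 0.745, 1.35, 1.31 and 1.17 FPKM. Cdk5rap2, a microcephaly gene that binds and activates gamma-tubulin rings, was at 25.9, 26.4, 22.0, 21.3 and 22.0 FPKM. The mean of Cdk5rap2 was 20.9 times that of Pcnt, with no overlap, and Pcnt minus Cdk5rap2 was -3.53 ± 0.30 on the log2 scale (sign-flip test, exact p = 0.062, adjusted 0.0714). Both transcripts are long, 9341 bases for Pcnt and 11847 bases for Cdk5rap2. Akap9, a large scaffold of the centrosome and Golgi with a transcript of 13123 bases, was at 27.5, 29.9, 45.8, 25.8 and 31.6 FPKM. It was highest in replicate 3, the library with the highest mesenchyme sum of 143 FPKM, and whether mesenchymal cells contributed to that value was not tested.

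Pcnt was the 1 member not called above 1 FPKM (difference 0.08, SE 0.08, limma adjusted p = 0.36). Rescaled to a sum of 1000000 FPKM, which raised the median expressed gene by 0.30 on the log2 scale, it was called above. About 178 to 340 reads stood behind its value in a library. Pde4dip, the paralog of Cdk5rap2, was at 19.3 ± 2.95 FPKM.

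All 7 gamma-tubulin ring genes lay above 10 FPKM, with a median of 46.2 FPKM. Gamma-tubulin itself, Tubg1, was at 108, 135, 108, 124 and 119 FPKM, and the second gamma-tubulin gene Tubg2 at 9.34 ± 0.70 FPKM. Tubg1 minus Tubg2 was 3.53 ± 0.09 on the log2 scale in 5 of 5 libraries (sign-flip test, exact p = 0.062, adjusted 0.0714), and how reads of these near-identical genes were divided is unknown, so both levels are uncertain. Tubgcp2 and Tubgcp3, the subunits that bind gamma-tubulin in the small complex, were at 52.2 ± 4.24 and 33.9 ± 3.06 FPKM. Tubgcp2 minus Tubgcp3 was 0.61 ± 0.18 and was smallest in replicate 1, at 0.30 against 0.63 to 0.71 in the other libraries.

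The ring subunits Tubgcp4, Tubgcp5 and Tubgcp6, which enter the full ring beside the small complexes, were unequal. Tubgcp4 was at 66.6, 80.7, 56.0, 69.0 and 69.8 FPKM, Tubgcp5 at 13.7, 17.1, 16.9, 18.6 and 16.4 FPKM, and Tubgcp6 at 11.5, 13.9, 15.0, 13.3 and 18.6 FPKM. Tubgcp5 and Tubgcp6 overlapped, and Tubgcp4 lay above both in every library. Of the annotated exon bases of Tubgcp4, 25.4% also lie in exons of Trp53bp1 on the other strand, which stood at 69.2 ± 6.94 FPKM. No source read here says that the library kept strand, and reads from the shared bases cannot be assigned, so the level of Tubgcp4 is uncertain. Nedd1, which attaches the ring to the centrosome and to augmin, was at 46.6, 49.8, 38.0, 52.2 and 44.3 FPKM, and Tubg1 minus Nedd1 was 1.35 ± 0.13 (sign-flip test, exact p = 0.062, adjusted 0.0714). The small ring proteins Mzt1 and Mzt2 stood at 33.5 ± 1.36 and 34.6 ± 1.04 FPKM.

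All 7 augmin members lay above 10 FPKM too, with a median of 67.6 FPKM, the highest median of any role. Haus1 led at 131, 139, 131, 144 and 133 FPKM, above every other augmin subunit in all 5 libraries. Haus5 (80.3 ± 5.27 FPKM), Haus8 (74.6 ± 6.98), which binds microtubules, Haus3 (67.6 ± 9.08) and Haus2 (52.0 ± 3.38) followed with ranges that overlapped between neighbours. Haus6, the subunit that contacts Nedd1, was at 14.2, 12.6, 14.6, 12.6 and 12.9 FPKM, and Haus4 at 13.9, 13.4, 11.8, 9.76 and 12.0 FPKM. These 2 subunits overlapped with each other and stood apart from the other 5, Haus2 minus Haus6 being 1.88 ± 0.14 on the log2 scale. Haus6 minus Haus8 was -2.39 ± 0.19 (sign-flip test, exact p = 0.062, adjusted 0.0714). Haus7, the remaining subunit of augmin and not a member here, was at 86.8 ± 9.39 FPKM. Haus5 shares 56.5% of its annotated exon bases with the overlapping transcript Gm21982, so its level is uncertain. Of the annotated exon bases of Haus1, 129 also lie in exons of Atp5a1 on the other strand. Atp5a1 stood at 1030 ± 77.3 FPKM, so the level of Haus1 and its lead over the other subunits are uncertain too.

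Among the spindle-pole genes, 2 stood far above the other 2. Tacc3, which with clathrin and Ckap5 links spindle microtubules, was at 191, 204, 187, 202 and 203 FPKM, and Ckap5, a microtubule polymerase, at 87.9, 103, 95.9, 114 and 90.7 FPKM. Tacc3 minus Ckap5 was 1.01 ± 0.13 on the log2 scale in 5 of 5 libraries (sign-flip test, exact p = 0.062, adjusted 0.0714). The microcephaly genes Aspm and Wdr62, whose proteins interact at spindle poles, lay together at a much lower level. Aspm (ENSMUSG00000033952, chromosome 1, 139454772 to 139494091) was at 5.00, 5.05, 6.93, 6.11 and 6.89 FPKM, and Wdr62 (ENSMUSG00000037020, chromosome 7, 30240138 to 30280419) at 5.31, 5.89, 5.63, 7.60 and 5.72 FPKM. Their ranges overlapped and Aspm was higher in 2 of 5 libraries. Aspm minus Wdr62 was -0.01 ± 0.24 on the log2 scale and ran from -0.27 to 0.26 (sign-flip test, exact p = 0.938, adjusted 0.938). Both lay below 10 FPKM, by -0.66 (SE 0.09, limma adjusted p = 0.000169) for Aspm and -0.65 (SE 0.08, limma adjusted p = 0.000122) for Wdr62.

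The promoters of these 4 genes are shown because Aspm and Wdr62 had like levels and Ckap5 and Tacc3 far higher ones. Each is the RefSeq window of 250 bases before to 50 after the start on GRCm38.p6, read 5′ to 3′ on the gene's strand, with matches on either strand to 3 motifs in capitals. The first, TTTGAA, is the cell cycle homology region of many late cell cycle genes. The second, CCAAT, is the box bound by NF-Y. The third is an E2F-like site, spelled as TTTCCCGC or as TTTGGCGC. Aspm is at chr1:139454523-139454822 (plus strand), Wdr62 at chr7:30280372-30280671 (minus strand, the more upstream of 2 annotated starts), Ckap5 at chr2:91526512-91526811 (plus strand) and Tacc3 at chr5:33657878-33658177 (plus strand).
Aspm: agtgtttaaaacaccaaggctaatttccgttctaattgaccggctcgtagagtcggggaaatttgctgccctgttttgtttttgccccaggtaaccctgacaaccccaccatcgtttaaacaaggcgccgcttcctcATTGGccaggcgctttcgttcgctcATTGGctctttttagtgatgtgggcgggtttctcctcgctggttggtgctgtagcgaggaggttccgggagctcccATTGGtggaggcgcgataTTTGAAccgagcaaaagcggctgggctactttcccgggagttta
Wdr62: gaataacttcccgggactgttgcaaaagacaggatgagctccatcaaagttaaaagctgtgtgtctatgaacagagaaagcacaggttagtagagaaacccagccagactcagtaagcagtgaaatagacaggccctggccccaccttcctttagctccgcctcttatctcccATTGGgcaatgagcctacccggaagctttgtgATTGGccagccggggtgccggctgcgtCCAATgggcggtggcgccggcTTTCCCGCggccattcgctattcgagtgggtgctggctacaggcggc
Ckap5: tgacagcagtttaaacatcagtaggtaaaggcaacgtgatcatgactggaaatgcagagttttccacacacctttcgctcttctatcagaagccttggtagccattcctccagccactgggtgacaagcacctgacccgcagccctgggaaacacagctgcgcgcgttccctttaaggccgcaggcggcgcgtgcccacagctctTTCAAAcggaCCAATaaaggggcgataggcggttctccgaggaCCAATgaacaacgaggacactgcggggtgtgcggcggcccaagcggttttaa
Tacc3: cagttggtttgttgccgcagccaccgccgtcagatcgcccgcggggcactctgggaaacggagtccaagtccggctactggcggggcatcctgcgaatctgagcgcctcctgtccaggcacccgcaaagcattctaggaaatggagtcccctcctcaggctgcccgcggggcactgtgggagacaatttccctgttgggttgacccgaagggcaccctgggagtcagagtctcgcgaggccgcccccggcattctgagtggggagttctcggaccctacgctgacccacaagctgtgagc

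The Aspm window holds 3 CCAAT matches and a TTTGAA just after the start. The Wdr62 window holds 3 CCAAT matches and TTTCCCGC with no TTTGAA, Ckap5 holds 2 CCAAT matches and 1 TTTGAA on the other strand, and Tacc3 holds none of these letters. Of the 35 members matched by symbol to a promoter, CCAAT was found in 51.4%, against 42.2% of 14376 tested genes with a promoter, TTTGAA in 22.9% against 16.6%, and the E2F-like letters in 2.86% against 2.58%. A gene with several starts counted when any window matched. Of the 42 members 12 have another protein-coding gene that starts on the other strand within 1000 bases of their own start, which is 28.6%, against 17.5% of 10814 expressed protein-coding genes. Cep63 with Anapc13, Tubg1 with Retreg3, and Haus1 with Atp5a1 are examples. These shares are descriptions and no site was shown to be used.

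The remaining 2 microcephaly genes were grouped under cytokinesis and chromosome condensation. Cit, the citron kinase of cytokinesis, was at 5.01, 8.80, 9.14, 9.00 and 8.22 FPKM. Replicate 1 stood below the other 4 libraries and was also the lowest for the mesenchyme list and for the 14 genes of G2 and M phase, whose summed level was 1993, 2367, 2431, 2732 and 2643 FPKM. The part of either in the Cit value was not tested. Cit lay below 10 FPKM (difference -0.31, SE 0.12, limma adjusted p = 0.0384), but this call was lost without replicate 2 (adjusted p = 0.0509), without replicate 5 (adjusted p = 0.0691), with every gene kept in the fit (adjusted p = 0.0697) and with each library rescaled to a sum of 1000000 FPKM (limma adjusted p = 0.873). Mcph1, microcephalin, which holds back early chromosome condensation, was at 6.06, 6.18, 6.71, 6.37 and 6.28 FPKM. Its SD of 0.05 on the log2 scale was the smallest of all 42 members.

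**Figure D4:**
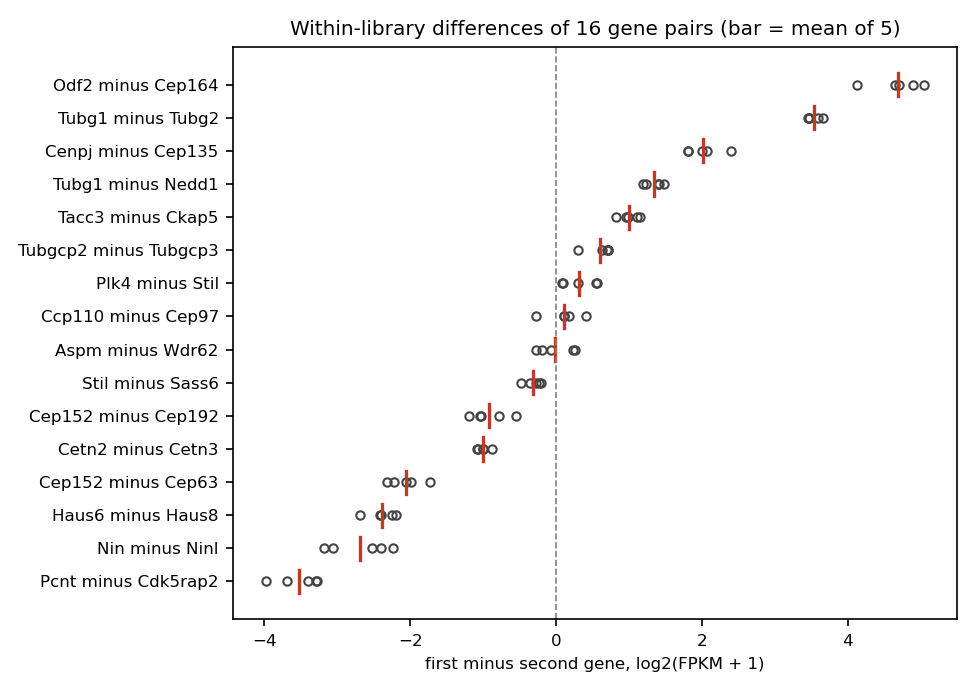
Differences within each library between the first and the second gene of 16 pairs on the log2(FPKM + 1) scale (circles, 5 libraries) with their mean (bar). In 14 pairs all 5 libraries lie on the same side of 0, and Ccp110 minus Cep97 and Aspm minus Wdr62 cross it.

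In 14 of the 16 pairs the sign of the difference was the same throughout the libraries, each with the smallest exact p of 0.062 and an adjusted p of 0.0714, so no pair passed 0.05. Within the roles, 24 of 34 neighbours in the order of mean levels kept that order in all 5 libraries, and the ranges of 16 of the 34 overlapped.

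The libraries differed little in these genes. The median SD over the 42 members was 0.16 on the log2 scale, the same as over all 10983 expressed genes. The median deviation of the microcephaly genes from their own means was -0.14, 0.03, 0.00, 0.03 and -0.06 in the 5 libraries, and that of the other members -0.07, 0.05, -0.03, 0.05 and 0.00. As deposited, 19 of 42 members (45.2%) were lowest in replicate 1, against 35.0% of expressed genes. With each library divided by its median ratio 11 members were lowest there, against 21.9% of expressed genes, and rescaled to a sum of 1000000 FPKM 9 were, against 18.5%. Both scalings raise every gene of replicate 1 by the same factor, so a lower count follows from them. The G2 and M list deviated by -0.19, -0.05, 0.02, 0.15 and 0.10, and the mesenchyme list by -0.79, -0.36, 0.47, 0.23 and 0.34. Opposite in sign to the mesenchyme list in each library were the neural progenitor and neuron lists. The neural progenitor list deviated by 0.20, 0.11, -0.22, -0.09 and -0.04, and the neuron list by 0.34, 0.22, -0.32, -0.006 and -0.11. Whether the mix of cells differed between libraries was not tested. All 42 members together deviated by -0.07, 0.05, -0.03, 0.04 and -0.004, highest in replicates 2 and 4. The S phase list, at -0.06, 0.08, -0.07, 0.06 and -0.01, was also highest in replicates 2 and 4 and lowest in replicates 1 and 3. The part of S phase in the members' deviations was not tested.

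**Figure D5:**
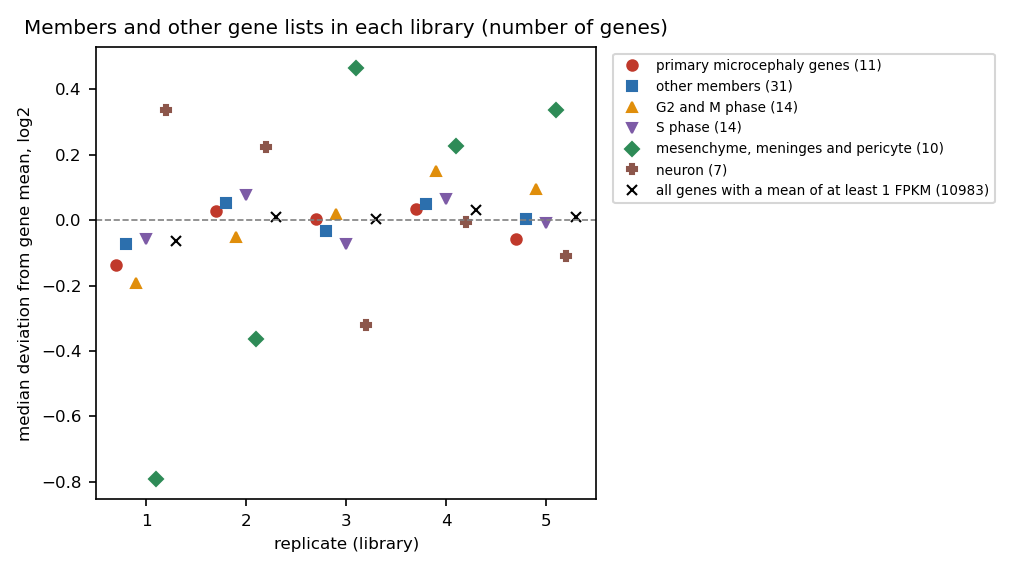
Median deviation from the gene's own 5-library mean on the log2(FPKM + 1) scale in each library, for the microcephaly genes, the other members and other gene lists, for list genes averaging 1 FPKM or more. The members stay between -0.14 and 0.05, while the mesenchyme list runs from -0.79 in replicate 1 to 0.47 in replicate 3.

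Other genes of the same structures and other microcephaly and Seckel genes were counted the same way, and no test compared the lists. Of 37 further centriole and satellite genes 34 lay above 1 FPKM and 1 below, and 19 lay above 10 FPKM and 16 below. Cep89, a distal appendage protein, was highest at 113 ± 21.5 FPKM, followed by Cep57 at 65.5 ± 3.64 FPKM, and Crocc, the rootlet protein, was lowest at 0.55 ± 0.20 FPKM. All 24 further spindle-pole and nucleation genes lay above 1 FPKM, 15 of them above 10 FPKM and 6 below. The mitotic kinase Aurka (162 ± 28.2 FPKM) and its activator Tpx2 (138 ± 10.1 FPKM) led, and Clasp2 was lowest at 2.78 ± 0.26 FPKM. Of the 33 measured other microcephaly and Seckel genes, which include replication and chromatin genes, all lay above 1 FPKM, 23 above 10 FPKM and 10 below. Gmnn (232 ± 12.7 FPKM) and Orc6 (169 ± 10.4 FPKM), both of replication licensing, were highest and Zfp335, a transcription regulator, lowest at 1.35 ± 0.16 FPKM. The median of this list was 19.6 FPKM, against 8.03 FPKM, on the same measure, for the 11 microcephaly genes among the members. It was 32.1 FPKM for the other 31 members and 12.3 FPKM for the 37 further centriole and satellite genes. The median of 8.03 FPKM describes those 11 genes only, and whether it holds for microcephaly genes in general was not tested.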

How the data were processed

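The authors deposited 1 table of FPKM, with a value per gene and library. Per the submitters' processing notes, the build was mm10 and the tools included Cuffdiff 2.2.1 and TopHat2 2.0.11, besides cutadapt and CASAVA 1.8, whose roles are not spelled out. The authors' annotation and filters are not given in the sources read. Per the labels' protocols, poly-dT primed cDNA was amplified for 12 cycles and libraries for 15, and single-end reads of 75 bases were taken without molecular identifiers, so depth figures cover counting error only.

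Gene identifiers were matched to GENCODE M21 of the same build (21537 of 21801). FPKM were tested as log2(FPKM + 1), an intercept with a variance trend in limma 3.58.1 (R 4.3.3), against 1 and against 10 FPKM, with adjustment over all 19706 genes tested. The fit was tested on simulated data. A fold on this scale understates low genes. Depth was read from values under 0.15 FPKM of genes with 1 transcript of over 800 bases, after taking 200 bases off each transcript, and reads behind a member are approximate. Another 2095 genes were listed at 0 in all libraries.

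The rule for named genes took all 42 members by role, both genes of each of 16 pairs, and the 2 highest and the lowest gene of each other list. It was followed for the lists of centriole, spindle-pole, deuterosome and other microcephaly genes, while lists of cell cycle phases and cell types are given by counts and sums, without gene names. Any other list gene was picked with its values in view. The members and lists were chosen with earlier results of these data known. The alternatives were other pseudocounts (0.5 and 0.1), scalings, filters, levels, variance settings and leaving out each library.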

Additional observations from a re-analysis of the deposited data

Results flagged for a closer look

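In groups of 5 libraries, a value was marked when the gap between the highest or lowest library and its nearest neighbour exceeded 0.71 of the whole range (Dixon's 95% critical value). Of 60 results looked at, 7 were marked, and chance marks about 1 in 20 groups. Haus8 was 87.0 FPKM in replicate 2 against 70.3 to 72.7 FPKM in the other libraries. Cep152 was 5.87 FPKM in replicate 2 against 3.83 to 4.30. Akap9 was 45.8 FPKM in replicate 3 against 25.8 to 31.6, and its mean without that library was 28.7 ± 2.54 FPKM (n = 4). Cntrob was 2.10 FPKM in replicate 3 against 3.72 to 4.15, with a mean of 3.96 ± 0.19 FPKM without it. Cit was 5.01 FPKM in replicate 1 against 8.22 to 9.14, and without that library it stood at 8.79 ± 0.40 FPKM and was still called below 10 FPKM (limma adjusted p = 0.0435). Wdr62 was 7.60 FPKM in replicate 4 against 5.31 to 5.89. Tubgcp2 minus Tubgcp3 was 0.30 on the log2 scale in replicate 1 against 0.63 to 0.71. The marked values fell in 4 different libraries, and their causes were not tested.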

How the results depend on the processing

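The count of 41 members above 1 FPKM and of 30 above 10 FPKM was unchanged when any 1 library was left out, and the count below 10 FPKM was 9 to 10 and that of microcephaly genes below it 5 to 6, for the loss of Cit. With the level set at 2 FPKM 1 member lay below it (Pcnt, -0.50) and Nin turned to -0.21. With 5 FPKM in place of 10, 5 members lay below and microcephaly genes numbered 8 above and 1 below, and Aspm (0.21), Mcph1 (0.29), Wdr62 (0.22), Cit (0.56), Cep192 (0.76) and Poc5 (0.86) turned positive. With 20 FPKM, 18 members lay below, of which 11 were outside the microcephaly list, and 2 microcephaly genes lay above. There Cenpj (-0.33), Stil (-0.10), Ninl (-0.33), Tubgcp5 (-0.26), Tubgcp6 (-0.46), Haus4 (-0.68), Haus6 (-0.55), Ccp110 (-0.033) and Cep97 (-0.14) turned negative. These moves follow from the level chosen. Rescaling to a sum of 1000000 FPKM turned Cep192 to 0.18 and Poc5 to 0.28 against 10 FPKM.

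The microcephaly median minus the other median was -1.84 to -1.75 with 1 library left out, -1.47 with means in place of medians, and, in alternatives added after the data had been seen, -0.86 for transcripts of at least 4000 bases and -1.19 without ring and augmin subunits. The cause was not tested. Aspm minus Wdr62 ran from -0.075 to 0.058 with 1 library left out and changed sign without replicate 1 (0.0074), replicate 2 (0.036) or replicate 4 (0.058). Of 1372 recomputed values of single members and pairs, 1340 kept their direction and side of the threshold. No paired analysis was possible because there is 1 group, so no replicate number is shared between groups. The gene pairs were compared within libraries. Depth limits the members with the fewest reads most, and these were not only the lowest in FPKM. Cntrob rested on about 158 to 431 reads, Pcnt on 178 to 340, and Haus4, at a mean of 12.2 FPKM, on 338 to 488.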
